A study of Mus musculus with 14 samples.

Results

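The stretch of mouse chromosome 9 from 100440001 to 100580000 (GRCm38) is 140 kb long and lies directly upstream of Stag1, which encodes a subunit of cohesin. It was followed here as the target of contacts measured by UMI-4C from 3 baits. Its members were all fragment ends listed against the bait of a library within these bounds, except ends less than 10 kb from that library's own bait. The interval contains 329 GATC restriction sites and thus 658 possible fragment ends, of which 597 (90.7%) were contacted in at least 1 of the 14 libraries and 134 in every library. The whole series listed 116782 contacted ends.

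The libraries came from untreated mouse embryonic stem cells (ESC), cultured in 2i medium with LIF, and from neural stem cells (NSC) derived from ES cells and maintained with EGF and FGF. The study's methods name its ESC line as the male line E14. Which line the NSC were derived from is not given in the sources used here, and each library averages over a population of cells. Nanog bait 1 was used in 4 ESC and 3 NSC libraries, Nanog bait 2 in 3 ESC libraries and 1 NSC library, and the CTCF bait in 2 ESC libraries and 1 NSC library. The libraries addressed how contacts around Stag1 are arranged in the 2 cell types.

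Chromosome conformation capture joins pieces of DNA that lie near each other in the nucleus, so that contacts become more frequent as the distance along the chromosome shrinks. Cohesin extrudes loops of chromatin and is halted by CTCF, a DNA-binding protein, which gives loops and domains with CTCF sites at their borders. Unique molecular identifiers (UMIs) mark single ligation products, so that each count stands for 1 captured molecule rather than for PCR copies.

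Within the interval lie the lincRNA gene Gm28166 (ENSMUSG00000101287.1, 100450322 to 100451912, plus strand) and 3 protein-coding genes on the minus strand. Il20rb (ENSMUSG00000044244.18, 100457719 to 100486788) encodes a receptor chain for cytokines of the interleukin 20 family. Nck1 (ENSMUSG00000032475.15, 100492293 to 100546134) encodes an adaptor protein with SH2 and SH3 domains, and the small sense intronic transcript Gm28586 (ENSMUSG00000100176.1) lies within it. Slc35g2 (ENSMUSG00000070287.3, 100552188 to 100571090) encodes a member of solute carrier family 35. Stag1 (ENSMUSG00000037286.15, plus strand) is annotated from 100597798, which is 17.8 kb beyond the end of the interval. This lies at the upstream start that the paper calls SATS, and the paper's canonical start lies farther downstream. Nanog bait 1 (100619989) and Nanog bait 2 (100641698) both lie in Stag1, so that the interval was 40.0 to 180.0 kb away from bait 1 and 61.7 to 201.7 kb away from bait 2, always on the upstream side. The CTCF bait (100455377) lies inside the interval, between Gm28166 and Il20rb, 164.6 kb from bait 1 and 186.3 kb from bait 2. Proximity to this bait left 562 of the 658 ends for its libraries, 495 of which (88.1%) were contacted, against 592 for bait 1 and 582 for bait 2.

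The cut sites of the baits are shown with 60 bases on either side, the GATC site in capitals, because every value below is a contact of 1 of these 3 points (RefSeq genome, GRCm38.p6).
Nanog bait 1, chr9:100619927-100620050, plus strand: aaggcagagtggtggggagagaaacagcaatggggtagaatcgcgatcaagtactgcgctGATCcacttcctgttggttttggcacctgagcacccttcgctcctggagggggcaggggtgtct
Nanog bait 2, chr9:100641637-100641760, plus strand: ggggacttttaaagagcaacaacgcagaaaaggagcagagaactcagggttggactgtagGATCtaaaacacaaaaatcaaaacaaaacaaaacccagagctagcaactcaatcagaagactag
CTCF bait, chr9:100455316-100455439, plus strand: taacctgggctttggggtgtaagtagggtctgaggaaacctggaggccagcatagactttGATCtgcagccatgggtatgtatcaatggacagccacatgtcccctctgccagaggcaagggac

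The core consensus of the CTCF motif was searched on both strands, and it matched once in the interval. This match (capitals) is printed as the only one in 140 kb, although 49.0% of the 857 stretches of this length on chromosome 9 held at least 1, and 9.98% of its 20 kb windows did. It lies in an intron of Nck1, 65381 bp from the CTCF bait, and a match of letters is not evidence of binding.
CTCF core match, chr9:100520728-100520799, plus strand: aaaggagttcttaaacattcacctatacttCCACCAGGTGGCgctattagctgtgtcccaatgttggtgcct

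Total depth was between 7172 and 51412 UMIs per library, of which 3221 to 24766 lay in the region, defined as everything farther than 10 kb and nearer than 1 Mb, and 774 to 4896 in the interval. At these depths 3 UMIs, the limit that a count of 0 allows, corresponded to 0.0121% to 0.0931% of the region. The region held a larger part of all UMIs in every ESC library than in any NSC library of the same bait, with 35.5% to 48.4% against 22.1% to 26.4% for bait 1, 35.1% to 48.6% against 30.6% for bait 2, and 48.2% and 55.9% against 39.8% for the CTCF bait. The part of this difference in the results was tested only through the choice of denominator. Some libraries of bait 1 were repeats of each other by the ends they shared on other chromosomes (82.6% to 85.7% in common): ESC replicate 1 with 4, ESC replicate 2 with 3, and NSC replicate 1 with 3. Each such pair was averaged into 1 sample, which left 2 ESC and 2 NSC samples for bait 1 and 11 independent samples in all. With 2 against 2 samples the exact permutation test cannot go below p = 0.333. Shared ends of 1.92% to 12.9% further linked libraries across cell types. The libraries of bait 1 were divided by these links into 2 inferred batches (the first NSC pair with ESC replicate 1 and its repeat, and NSC replicate 2 with the other ESC pair). The sample titles name no batch. The second rests on ESC replicate 3, which shared 3.81% with NSC replicate 2, whereas ESC replicate 2 shared 0.466%, below the 1% used for a link.

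From Nanog bait 1, a larger share of contacts fell in the interval in ESC than in NSC. The interval share, its UMIs as a percentage of the region, was 24.3%, 24.1%, 23.5% and 24.5% in ESC replicates 1 to 4 and 21.3%, 20.3% and 22.0% in NSC replicates 1 to 3. All ESC libraries were above all NSC libraries. The sample means were 24.1% ± 0.434 (SD, n = 2) and 21.0% ± 0.963 (SD, n = 2), a difference of 3.12 percentage points (two-sided exact permutation test, p = 0.333, the smallest possible here). Within the batches it was 2.75 and 3.49 points. It was 0.383 points when the region was limited to 500 kb, 1.57 with each end counted once, and 5.95 with all UMIs beyond 10 kb as denominator, so that its size depended on the denominator. If every library is taken as a replicate, the difference of 2.89 points gave an exact permutation p = 0.0286, the smallest that 4 against 3 allow, but that count includes repeats. For scale, the interval made up 7.07% of the length of the region.

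From Nanog bait 2 the total did not separate the cell types. ESC replicates 1 to 3 had interval shares of 24.7%, 24.0% and 25.1%, and the single NSC library had 24.0% (95% Wilson interval 22.98% to 25.1%), which lay inside the ESC range. This difference of 0.553 points became -2.82 when the region was limited to 500 kb and 4.14 when all UMIs beyond 10 kb were the denominator, so it has no settled direction. With the CTCF bait, the 2 ESC libraries differed from each other more than from NSC, at 19.8% and 23.7% against 20.1% (95% Wilson interval 19.3% to 21.0%). Against ESC replicate 1, the library most closely linked to the NSC library, the difference was only -0.367 points. These are values of single NSC libraries and have no replicate check.

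**Figure D1:**
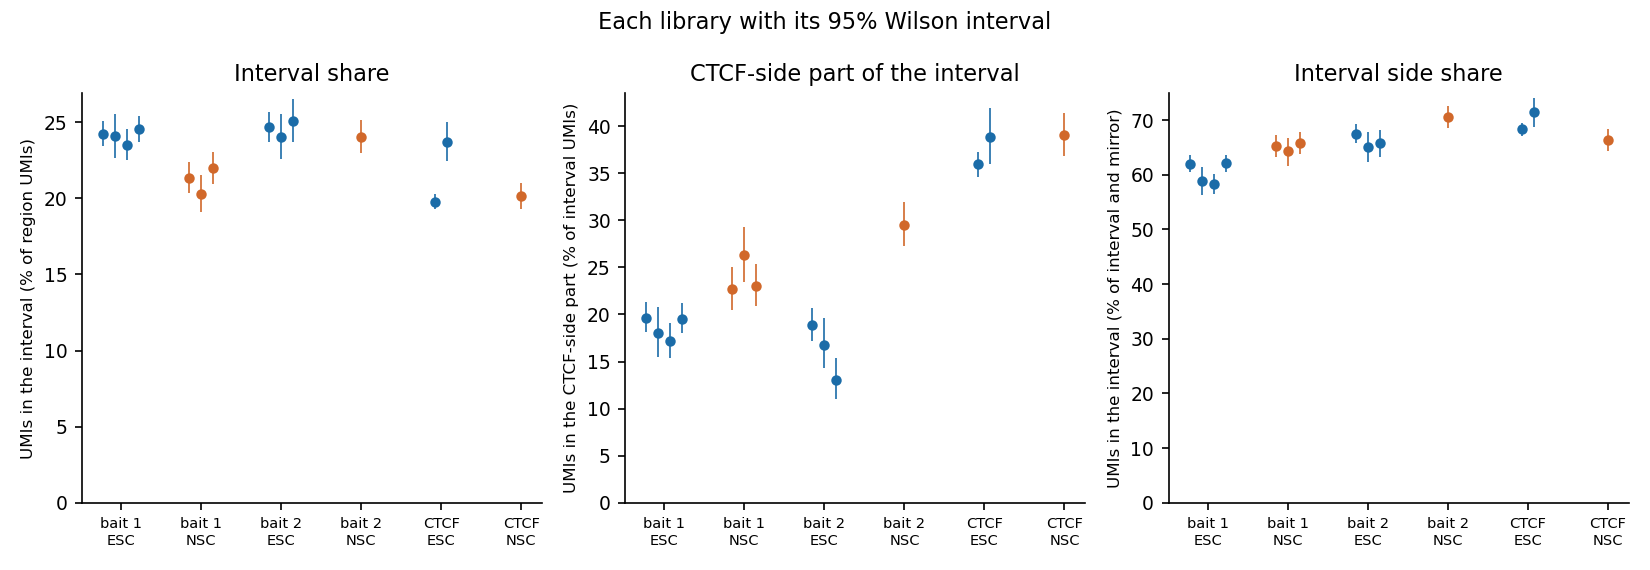
Each point is 1 library (blue ESC, orange NSC) with its 95% Wilson interval, by bait and cell type. Left, UMIs of the interval as a percentage of the region. Middle, UMIs from the interval's start to the far end of Il20rb as a percentage of the interval's UMIs. Right, UMIs of the interval as a percentage of the interval and its mirror image. In the middle panel all ESC libraries of baits 1 and 2 lie below all NSC libraries of the same bait.

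For the Nanog baits, contacts were also compared inside the interval. The interval was split at the far end of Il20rb into a CTCF-side part, which holds the CTCF bait site, Gm28166 and Il20rb, and a Stag1-side part, which holds Nck1 and Slc35g2. This split was chosen after the window values had been seen. From bait 1, the CTCF-side part took 19.6%, 17.995%, 17.2% and 19.6% of the interval's UMIs in ESC and 22.7%, 26.3% and 23.1% in NSC. The groups did not overlap, with means of 18.6% ± 1.43 and 24.6% ± 2.42 (SD, n = 2 each, exact permutation p = 0.333, the smallest possible). The differences within the batches were -3.26 and -8.71 points. From bait 2 it took 18.8%, 16.8% and 13.0% in ESC against 29.5% in NSC (95% Wilson interval 27.3% to 31.9%), so that the NSC value was 10.7 points above ESC replicate 1, the highest of them and the one most closely linked to it. The share of each part within the interval does not depend on how libraries are scaled, but this does not extend to counting each end once. In the interval's first 20 kb, bait 1 contacted 84.3%, 45.4%, 71.3% and 81.5% of possible ends in ESC. In NSC it contacted 65.7%, 58.3% and 70.4%, so the cell types overlapped. From bait 2 these values were 76.9%, 47.2% and 31.5% in ESC and 79.6% in NSC. Unlike the shares above, they are not scaled to depth. For the CTCF bait the CTCF-side part took 35.9% and 38.9% of the interval's UMIs in ESC and 39.1% in NSC. The difference was -1.67 points from the ESC mean and -3.15 points from ESC replicate 1.

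In bait 1 samples, the gene segments on the Stag1 side were all higher in ESC as shares of the region. These shares have the denominator of the interval share, whose difference fell in a region of 500 kb. The size of their gaps depends on it as well. Nck1 took 8.39% ± 0.233 in ESC and 6.85% ± 0.665 in NSC, Slc35g2 took 5.28% ± 0.094 and 4.48% ± 0.095, and the stretch from Slc35g2 to the interval's end took 3.04% ± 0.009 and 2.05% ± 0.325 (SD, n = 2 each, exact permutation p = 0.333 for each). Il20rb took 2.83% ± 0.122 in ESC and 3.37% ± 0.273 in NSC, again without overlap, but its direction turned with each end counted once (0.134 points higher in ESC) and with chromosome 9 (0.289) or all UMIs (0.467) as denominator. The stretch before it, with the CTCF bait site, had overlapping samples (1.65% and 1.77%). From bait 2, Il20rb took 2.77%, 2.27% and 2.13% in the ESC libraries and 3.82% in NSC. The stretch with the CTCF bait site took 1.87%, 1.77% and 1.14% in ESC and 3.28% in NSC. Nck1 took 8.78%, 8.51% and 9.45% in ESC and 8.33% in NSC, a difference that turned to -0.548 points in a region of 500 kb, and Slc35g2 took 4.65%, 4.69% and 4.54% in ESC and 4.04% in NSC. Seen by the CTCF bait, Il20rb took 5.42% and 7.15% in ESC and 6.06% in NSC, and Nck1 took 7.85% and 8.55% in ESC and 7.51% in NSC.

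The profile was then followed in 7 windows of 20 kb, numbered from the CTCF side. Window 1 holds the CTCF bait site and Gm28166, window 2 lies within Il20rb, window 3 spans the start of Il20rb and the end of Nck1, windows 4 and 5 lie within Nck1, window 6 holds the start of Nck1, and window 7 holds the start of Slc35g2. Windows are compared with each other per fragment end, both per possible end and per end seen, that is, contacted in at least 1 library. The second form is conditioned on contact, since a stretch with few contacts has fewer ends seen. The choice matters for window 4 (100500001 to 100520000), where only 65 of 104 ends were ever contacted (62.5%), against 93.1% to 99.0% in the other 6 windows. In window 4, 51.9% of the GATC sites also lay in mostly repeat-masked sequence, against 9.26% to 34.9% elsewhere. Divided by all possible ends, window 4 was below both windows 3 and 5 in 14 of 14 libraries, at 0.484 to 0.684 of their mean. Divided by the ends seen, which raises this ratio by construction, it was still below their mean in 12 of 14 libraries, at 0.727 to 1.03, but below both windows in 2. Whether the unseen ends could not be mapped or were not contacted cannot be told from these counts.

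**Figure D2:**
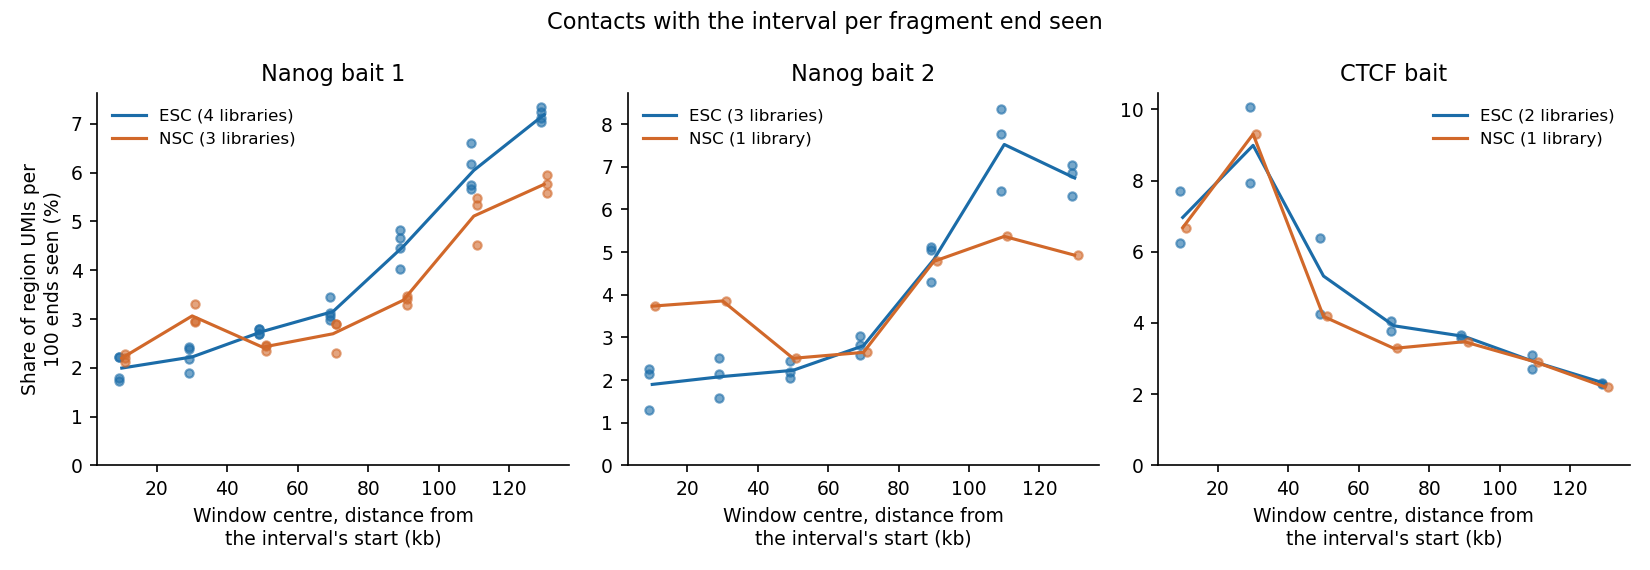
Contacts per 100 fragment ends seen, as a percentage of the UMIs of the region (y axis), against the distance of each 20 kb window's centre from the interval's CTCF-side border in kb (x axis). Points are libraries, lines are their means, blue is ESC and orange is NSC. Per end seen, the Il20rb window at 30 kb stands above the next window at 50 kb in NSC from both Nanog baits, and in ESC of bait 1 it lies below it.

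In NSC, contacts of Nanog bait 1 per fragment end were more frequent with window 2, within Il20rb, than with window 3, although window 3 is nearer to the bait. Not divided by ends, window 2 was below window 3 in all libraries of bait 1, with 1.98%, 2.21% and 1.97% against 2.22%, 2.35% and 2.33% of the region in NSC, so that this order depends on the count of ends. Per 100 ends seen, window 2 took 2.95%, 3.30% and 2.93% of the region in the NSC libraries and window 3 took 2.34%, 2.48% and 2.46%. In ESC window 2 was below window 3 per end too, with 2.39%, 2.17%, 1.90% and 2.43% in window 2 and 2.79%, 2.69%, 2.70% and 2.80% in window 3. The ratio of window 2 to window 3 was 0.809 ± 0.075 in ESC and 1.28 ± 0.074 in NSC (SD, n = 2 each, exact permutation p = 0.333). It was below 1 in 4 of 4 ESC libraries and above 1 in 3 of 3 NSC libraries, and so it was per possible end (0.746 to 0.918 and 1.26 to 1.41). With each end counted once, the split did not hold. A larger part of possible ends was then contacted in window 2 in ESC replicates 1 (89.7% against 85.3%) and 4 (88.2% against 84.3%). In ESC replicates 2 and 3 window 2 stayed below, and in NSC it stayed above. From bait 2 the ratio was 1.15, 0.643 and 1.05 in ESC and 1.54 in NSC. For the CTCF bait, to which window 2 is the nearer one, it was 1.87 and 1.57 in ESC and 2.22 in NSC. These ratios were chosen after the profiles had been seen.

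The CTCF bait site itself was followed in 10 kb bins. Its bin (100450001 to 100460000) took 1.32%, 0.960%, 1.05% and 1.35% of the region in ESC and 1.40%, 1.49% and 1.49% in NSC from bait 1, and 1.51%, 1.49% and 0.887% in ESC and 2.32% in NSC from bait 2. These shares exceeded those of both neighbouring bins in 7 of 7 and 4 of 4 libraries. The bin also holds 64 fragment ends, against 44 and 30 in its neighbours, and per possible end it exceeded both in 0 of 7 libraries of bait 1 and 1 of 4 of bait 2. Between the cell types, the direction of window 1, which holds this bin, turned under other scalings from bait 1.

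**Figure D3:**
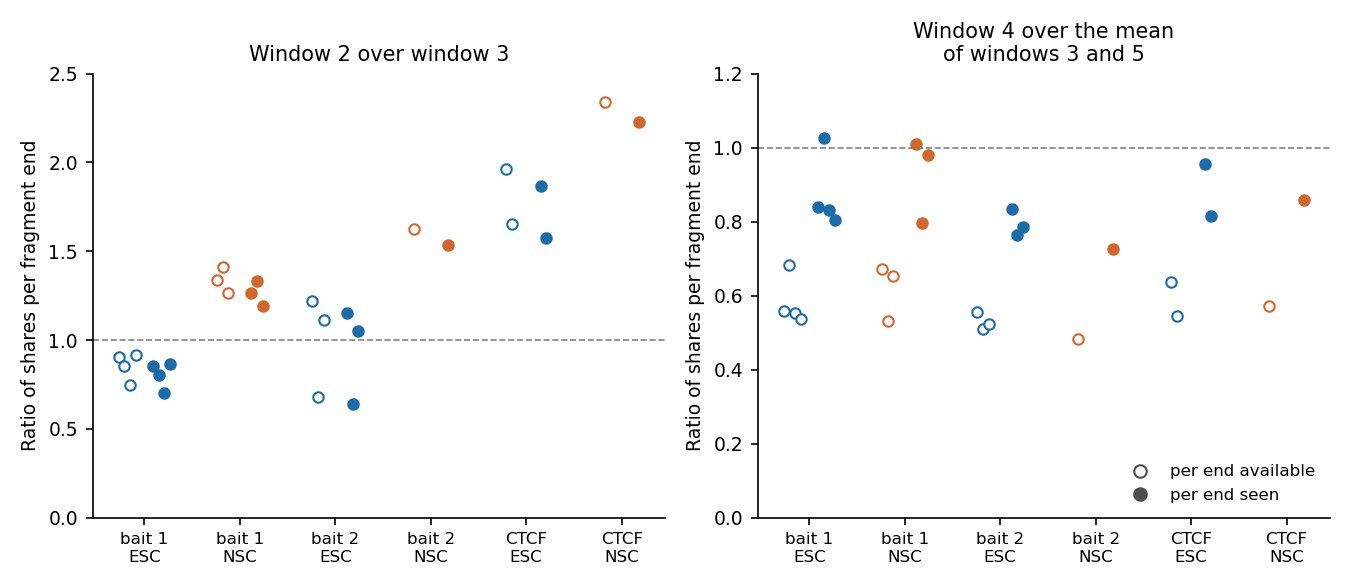
Ratios of contacts per fragment end between windows of the interval, 1 point per library (blue ESC, orange NSC), by bait and cell type. Open points divide by all possible ends, filled points by ends contacted in at least 1 library, and the dashed line marks equal levels. Left, the Il20rb window over its neighbour toward Stag1, above 1 in all NSC libraries. Right, window 4 in Nck1 over its neighbours, where the filled points lie above the open ones because fewer ends of window 4 were seen.

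Tests of single windows were run over all windows of the region (edgeR quasi-likelihood test, Benjamini-Hochberg adjustment). From bait 1, 31 of 100 windows passed an adjusted p of 0.05, 12 of them higher in ESC (12%) and 19 higher in NSC (19%). In the interval, 2 of 7 windows were higher in ESC and 1 was higher in NSC. Window 5, within Nck1 and holding the CTCF core match, took 3.77%, 3.26%, 3.61% and 3.91% of region UMIs in the ESC libraries and 2.76%, 2.66% and 2.81% in NSC, a log2 fold change (ESC over NSC) of 0.44 ± 0.10 (SE, edgeR adjusted p = 0.0401). Window 7, with the start of Slc35g2, took 6.09%, 5.99%, 5.92% and 6.17% in ESC and 4.84%, 4.68% and 5.002% in NSC (0.33 ± 0.09, adjusted p = 0.0440). Window 2, within Il20rb, took 1.60%, 1.45%, 1.27% and 1.63% in ESC and 1.98%, 2.21% and 1.97% in NSC (-0.46 ± 0.13, adjusted p = 0.0487). In each of these windows the libraries of the cell types did not overlap. Windows 3, 4 and 6 had log2 fold changes of 0.18, 0.24 and 0.26 and window 1 of -0.09, none past the threshold. The ranges of the cell types were separate in 6 of these 7 windows, but that held for 82% of all windows tested and says little about the interval.

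How many windows were called, and the direction of window 2, depended on the scaling. The median log2 fold change over all windows of bait 1 was -0.47 when libraries were scaled to region UMIs and -0.10 with TMM factors. With TMM factors, 22 windows were higher in ESC and 10 in NSC, and in the interval 5 of 7 were higher in ESC and 0 in NSC, so that the call of Il20rb was lost while those of Nck1 and Slc35g2 held. Among the 100 windows, ordered from the highest log2 fold change, the Il20rb window stood at place 49, whereas windows 5 and 7 stood at places 10 and 13. With DESeq2 or with all UMIs as library size the calls of windows 2 and 7 were lost and that of window 5 held, and with all UMIs windows 3 and 4 were called higher in ESC as well (edgeR adjusted p = 0.0382 and 0.0153). In 10 kb windows, 0 of 14 in the interval were called higher in ESC and 1 higher in NSC. No window of bait 1 passed when ESC replicate 3 or NSC replicate 2 was left out, when either whole sample of a cell type was left out, when batch was added as a block or when each end was counted once, although 7 to 44 windows then had an unadjusted p under 0.05 in edgeR. The call of window 2 was also lost without ESC replicate 1, NSC replicate 1 or NSC replicate 3 (edgeR adjusted p = 0.0519, 0.0553 and 0.0514), and that of window 7 without NSC replicate 1 (0.0511).

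From bait 2 the test set 1 NSC library, assumed to vary like the ESC libraries, against 3 ESC libraries, so that its p-values cannot tell the cell type from that library. In it 5 of 100 windows passed, 3 of them higher in NSC (3%). The interval held 2 of those 3. Without ESC replicate 1, 53 windows passed in all, and without ESC replicate 3 only 1. Window 1, with the CTCF bait site, took 2.30%, 2.17% and 1.33% of region UMIs in the ESC libraries and 3.81% in the NSC library (log2 fold change -0.94 ± 0.19, edgeR adjusted p = 0.000209). Window 2, within Il20rb, took 1.69%, 1.06% and 1.44% in ESC and 2.58% in NSC (-0.83 ± 0.20, adjusted p = 0.0020). In both windows the NSC library was above every ESC library. Windows 6 and 7, with the starts of Nck1 and Slc35g2, had log2 fold changes of 0.48 and 0.46 and missed the threshold. Both were called higher in ESC without ESC replicate 1, where 53 windows passed in all, and by Fisher's exact test on the summed UMIs. Fisher's exact test called 45 of 100 windows, 9 of them higher in ESC. It treats single UMIs as replicates, so it covers counting error only and not the spread between libraries. Window 6 took 6.62%, 8.01% and 8.62% in ESC and 5.53% in NSC, and window 7 took 5.91%, 5.31% and 5.76% in ESC and 4.14% in NSC. Windows 3, 4 and 5 had log2 fold changes of -0.18, 0.10 and 0.02. ESC and NSC libraries were separate in 5 of these 7 windows, against 78% of all windows tested. The median over all windows of bait 2 was -0.76, and windows 1 and 2 stood at places 65 and 57 of 100 from the top. Both calls were lost with TMM factors (adjusted p = 0.383 and 0.434) and when each end was counted once. Without ESC replicate 3 the call of window 1 was lost (adjusted p = 0.0817).

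The test for the CTCF bait set 1 NSC library against 2 ESC libraries, so that its p-values, too, cannot tell the cell type from that library, and a missed threshold does not show that contacts were alike. It gave 13 of 101 windows past the threshold in either direction (12.9%), but 0 of the 7 in the interval. None of the 7 had an unadjusted p under 0.05 either. Fisher's exact test and edgeR with TMM factors also called none of them, although both called windows elsewhere in the region. DESeq2 called no window of this bait at all, so it says nothing about the interval. The log2 fold changes were between -0.08 and 0.29, with standard errors of 0.16 to 0.61. The standard error was not lowest where UMIs were most numerous, being 0.61 in window 3 with 1605 UMIs and 0.17 in window 7 with 726. Window 3, with the start of Il20rb, had the widest spread, at 4.03% and 6.07% in ESC and 3.97% in NSC. ESC and NSC libraries were separate in 4 of these 7 windows, against 73.3% of all windows tested. Only 30 ends of window 1 and 50 ends of window 2 lay at least 10 kb from this bait.

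**Figure D4:**
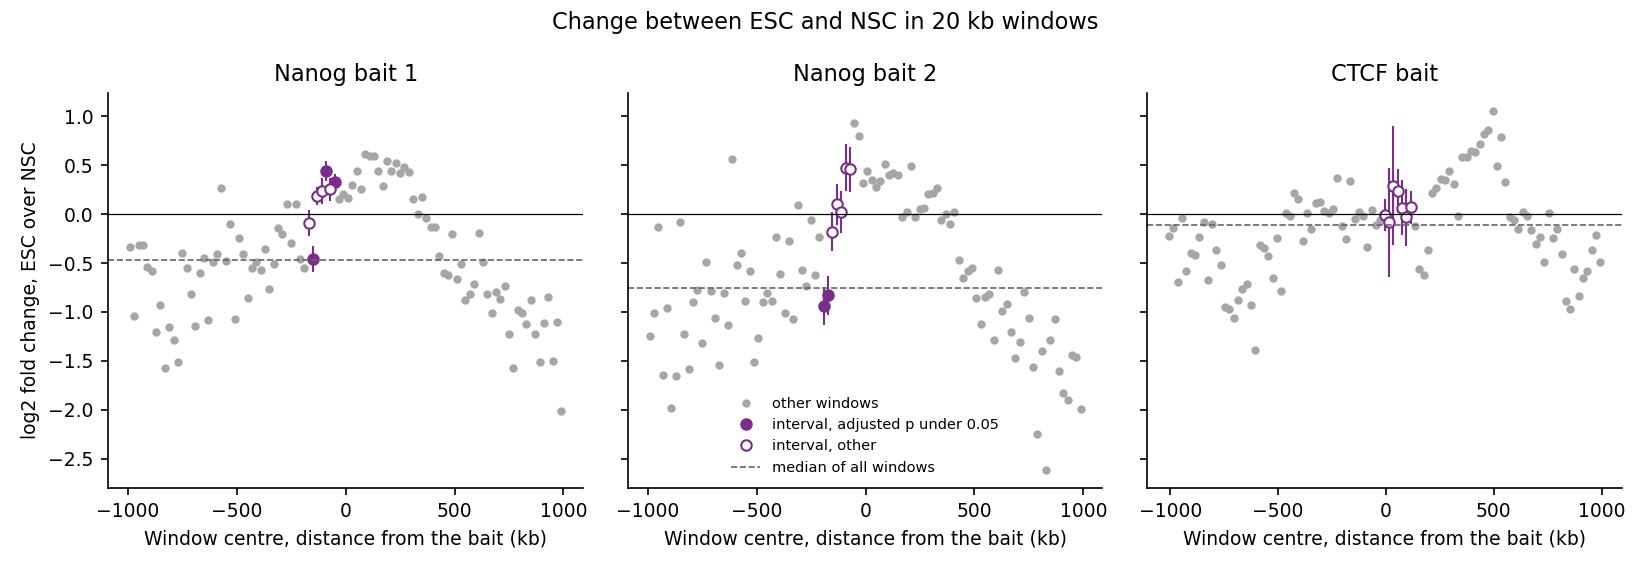
Log2 fold change of contacts, ESC over NSC (y axis), for every 20 kb window against its distance from the bait in kb (x axis, negative values upstream). Purple points are the 7 windows of the interval with their standard errors, filled where the edgeR adjusted p was under 0.05, grey points are all other windows, and the dashed line is the median of all windows. From both Nanog baits the purple points nearest to the bait lie above 0 and the 2 farthest lie below 0, and from the CTCF bait they lie between -0.08 and 0.29.

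To compare the interval with DNA equally far from the bait, its UMIs were set against those of its mirror image at the same distances downstream, inside Stag1. From bait 1, the interval took 62.0%, 58.8%, 58.3% and 62.1% of the UMIs of both sides in ESC and 65.3%, 64.3% and 65.8% in NSC, with sample means of 60.3% ± 2.48 and 64.9% ± 0.88 (SD, n = 2 each, exact permutation p = 0.333). The groups did not overlap, and the batches gave differences of -3.47 and -5.73 points. From bait 2 it took 67.5%, 65.2% and 65.8% in ESC and 70.6% in NSC (95% Wilson interval 68.6% to 72.5%). From both Nanog baits the interval thus held the larger part, and more so in NSC, although its share of the whole region from bait 1 was larger in ESC. The difference for bait 2 was smaller with each end counted once. Over the mirror image, the share of the region was 15.9% ± 1.36 in ESC and 11.3% ± 0.08 in NSC from bait 1, a larger relative gap than over the interval (1.40-fold against 1.15-fold).

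The side share differed more between the cell types at the CTCF end. Against its own mirror image, the CTCF-side part took 56.0%, 51.2%, 48.6% and 55.4% in ESC and 63.1%, 62.9% and 63.7% in NSC from bait 1. From bait 2 it took 60.3%, 55.6% and 52.9% in ESC and 70.9% in NSC (95% Wilson interval 67.2% to 74.4%). The Stag1-side part differed less, at 62.3% ± 2.15 in ESC and 65.5% ± 0.995 in NSC from bait 1 (SD, n = 2 each), and at 69.4%, 67.5% and 68.3% in ESC and 70.5% in NSC from bait 2. The 95% Wilson intervals of bait 1 for the CTCF-side part included 50% in ESC replicates 2 and 3, and lay above it in ESC replicates 1 and 4 (from 52.6% and 52.1%) and in all NSC libraries. The difference between the 2 parts was not itself tested.

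For the CTCF bait the interval side share used only distances beyond 15.4 kb, where just 1 side belongs to the interval. Here the direction was the opposite, with 68.4% and 71.5% in ESC and 66.4% in NSC (95% Wilson interval 64.3% to 68.3%). Against the most closely linked ESC library the difference was 1.99 points, and the Wilson intervals of these 2 libraries overlapped.

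Single fragment ends carried few UMIs, and none exceeded 38 in the interval. The most contacted end is given for each bait by its mean share, with ESC and NSC weighted equally, and its surroundings are printed in the same form as the bait sites. For bait 1 it lay in an intron of Slc35g2, 9282 bp from the start of that gene, with 13, 5, 9 and 14 UMIs in ESC and 9, 3 and 9 in NSC. The next 2 lay in an intron of Nck1, 966 bp from its start, with 8, 2, 7 and 9 UMIs in ESC and 5, 9 and 5 in NSC, and in another place of the Slc35g2 intron sequence, with 10, 6, 8 and 10 in ESC and 3, 6 and 4 in NSC. UMIs are not scaled to depth, so these values show only that the ends recurred in every library of bait 1. Such recurrence was common, since 134 ends of the interval were contacted in all 14 libraries. The mean shares of these 3 ends were close (0.122%, 0.114% and 0.111%), so the rank of a single end means little. For bait 2 the most contacted end was intergenic, 2251 bp upstream of the start of Nck1, with 9, 5 and 7 UMIs in ESC and 8 in NSC. The end ranked next lay 980 bp upstream of the same start, with 6, 7 and 9 UMIs in ESC and 6 in NSC, and the one after it in an intron of Nck1, with 6, 4 and 4 in ESC and 9 in NSC. For the CTCF bait it lay in an intron of Il20rb, 10.2 kb from the bait and thus just outside the excluded distance, with 35 and 10 UMIs in ESC and 18 in NSC. The ends ranked after it also lay in Il20rb introns, 13.985 and 12.178 kb from the bait, with 33 and 13 UMIs in ESC and 13 in NSC, and 38 and 6 in ESC and 17 in NSC.
Bait 1, first end, chr9:100561747-100561870, plus strand: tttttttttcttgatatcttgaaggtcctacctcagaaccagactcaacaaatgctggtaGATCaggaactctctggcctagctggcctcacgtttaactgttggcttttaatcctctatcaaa
Bait 2, first end, chr9:100548324-100548447, plus strand: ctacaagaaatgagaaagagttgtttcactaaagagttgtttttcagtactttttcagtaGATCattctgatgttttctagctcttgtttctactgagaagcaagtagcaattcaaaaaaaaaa
CTCF bait, first end, chr9:100465474-100465597, plus strand: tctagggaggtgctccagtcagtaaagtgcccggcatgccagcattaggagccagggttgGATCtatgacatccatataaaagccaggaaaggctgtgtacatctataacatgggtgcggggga

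The promoters of Il20rb and Nck1 are shown because the split between the CTCF-side and the Stag1-side part of the interval separates these genes (RefSeq, 250 bases before to 50 after the start, minus strand, with CG in capitals). Of the 5 genes in the interval, 4 had a promoter entry. Il20rb had 1 CG and Nck1, at its annotated start, had 33, where the median of 32851 promoters was 7, and 14.1% of promoters had as few as Il20rb or fewer. A second Nck1 entry, inside the gene (100506807 to 100507106), had 2 CG, and Slc35g2 had 22, so CG counts varied on the Stag1 side. Neither of the 2 printed promoters held the CTCF core or a GATC site, so that no fragment end fell within these windows.
Il20rb promoter, chr9:100486424-100486723, minus strand: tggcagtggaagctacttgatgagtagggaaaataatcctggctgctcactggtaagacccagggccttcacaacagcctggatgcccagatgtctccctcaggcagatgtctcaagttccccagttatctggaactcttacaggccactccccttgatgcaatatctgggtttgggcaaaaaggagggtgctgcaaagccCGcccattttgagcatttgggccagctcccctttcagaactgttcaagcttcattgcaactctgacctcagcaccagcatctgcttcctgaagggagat
Nck1 promoter, chr9:100546085-100546384, minus strand: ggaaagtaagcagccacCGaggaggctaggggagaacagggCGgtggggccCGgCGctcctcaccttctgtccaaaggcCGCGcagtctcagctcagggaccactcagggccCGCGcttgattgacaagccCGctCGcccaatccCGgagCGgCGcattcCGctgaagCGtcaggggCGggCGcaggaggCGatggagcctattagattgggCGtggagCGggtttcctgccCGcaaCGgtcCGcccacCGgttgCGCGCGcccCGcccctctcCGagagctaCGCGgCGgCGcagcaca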

How the data were processed

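UMI-4C libraries of mouse ESC and NSC were analysed. The authors deposited 1 file per library with raw UMI counts per pair of fragment ends, not normalised. Per the labels' processing notes, Bowtie2 and mm10 were used. The UMI rule and filters are not given in the sources used here. The bait was the commonest second end of each file, and listed ends lay at GATC sites of GRCm38 in 100% of cases. Groups and replicate numbers came from the titles, and nothing states that replicates are separate cultures, so p-values measure the spread between libraries, which may be technical. Replicate numbers did not pair the bait 1 libraries (r of deviations -0.50, -0.23 and -0.08).

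UMIs within 10 kb or beyond 1 Mb of the bait were left out of the region. Libraries sharing over 50% of their trans ends were averaged, and those sharing over 1% were called linked. Shares were compared by exact permutation tests (scipy 1.17.1). Windows with at least 10 UMIs were tested with edgeR 4.0.16 (R 4.3.3), with DESeq2 1.42.0 as an alternative. On simulated windows with 20 of about 100 changed 2-fold, the test recovered 12 for bait 1, 8 for bait 2 and 13 for the CTCF bait, with 0 false calls. This was a single draw per bait with all changes higher in ESC. Smaller changes, such as those called for bait 1, were not simulated. Intervals are 95% Wilson intervals and, like the limits for a count of 0, cover counting error only.

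All windows and all genes of the interval were described, with the first end per bait printed out of 3 ranked. Cut sites are printed with 60 bases on each side rather than as whole fragments, since the files do not say to which side a fragment extends. The interval, the measures and the lists were chosen with earlier results of these data known.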

Additional observations from a re-analysis of the deposited data

Results flagged for a closer look

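The side share of the interval had differences of opposite sign between baits. From bait 1, all ESC libraries (58.3% to 62.1%) were below all NSC libraries (64.3% to 65.8%), a difference of the library means of -4.81 percentage points. From bait 2 the ESC libraries (65.2% to 67.5%) were below the NSC library (70.6%), a difference of -4.45 points. From the CTCF bait the ESC libraries (68.4% and 71.5%) were above the NSC library (66.4%), a difference of 3.54 points. With each end counted once, the differences of bait 2 and of the CTCF bait were smaller. The mirror images of the baits are different stretches of DNA, and the difference between baits was not tested.

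Window 3, with the start of Il20rb and the end of Nck1, had differences of opposite sign between baits as a share of the region, but for bait 2 the sign depended on the scaling. It was higher in all ESC libraries of bait 1 (2.56% to 2.66%) than in NSC (2.22% to 2.35%), by 0.307 points. It was lower in all ESC libraries of bait 2 (1.94% to 2.33%) than in the NSC library (2.38%), by -0.267 points in ESC minus NSC. Its log2 fold change for bait 2 was -0.18, and 0.33 with TMM factors, 0.29 with all UMIs, 0.57 with DESeq2 and 0.29 with each end counted once, the same sign as for bait 1. From the CTCF bait it was higher in both ESC libraries (4.03% and 6.07%) than in the NSC library (3.97%), by 1.08 points. The difference between baits was not tested, and none of the 3 single comparisons passed the edgeR test over windows scaled to region UMIs, although that of bait 1 did with TMM factors and with all UMIs (adjusted p = 0.0322 and 0.0382).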

How the results depend on the processing

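The interval share of bait 1 was higher in ESC under all alternatives run (2.44 to 3.801 points when a library or sample was left out, 3.84 with 20 kb left out, 1.57 with each end counted once, 0.383 in a region of 500 kb, 5.78 with chromosome 9 and 5.95 with all UMIs as denominator, both beyond 10 kb), and with each library as a replicate it was 2.89 points (exact permutation p = 0.0286). The difference for bait 2 was 1.21 points with 20 kb around the bait left out, 3.83 with each end counted once, -2.82 in a region of 500 kb, 3.51 with chromosome 9 and 4.14 with all UMIs as denominator, and 0.311 to 0.834 with a library left out. Without a library, that of the CTCF bait was -0.367 to 3.59. The side share difference of bait 1 was -4.81 with each library as a replicate and -6.35 to -2.85 with a library or sample left out. For bait 2 it was -1.55 with each end counted once, -3.09 against the most closely linked ESC library and -5.13 to -3.95 with a library left out, and for the CTCF bait 1.24 with each end counted once and 1.99 to 5.09 with a library left out.

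The number of windows called for bait 1 was 31, and it was 12 with DESeq2, 0 with each end counted once, 63 with each library as a replicate, 0 with batch as a block and 0 to 34 with a library or sample left out. With a replicate block it was 57, with windows 2, 5 and 7 still past the threshold, but the libraries share only a number and are not paired. Baits 2 and CTCF have 1 NSC library, so that no block could be fitted. For bait 2 the 5 calls became 0 with TMM factors, all UMIs, DESeq2, each end counted once or 10 kb windows, 45 with Fisher's exact test and 1 to 53 with a library left out. For the CTCF bait the 13 calls became 0 with all UMIs, DESeq2 or each end counted once, 3 with 10 kb windows and 28 with Fisher's exact test. Leaving out a library of the CTCF bait leaves no spread to test windows against and was not run.

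Some directions turned. For bait 1, the Il20rb share was higher in ESC with each end counted once (0.134 points), chromosome 9 (0.289) or all UMIs (0.467) as denominator. The stretch before Il20rb was so under the same settings (0.108, 0.240 and 0.307), within batch 1 (0.0953) and without ESC replicates 2 and 3 (range over samples left out -0.332 to 0.0966). As log2 fold changes, window 1 of bait 1 became 0.28 with TMM factors, 0.64 with all UMIs, 0.35 with DESeq2, 0.11 with each end counted once and 0.023 without ESC replicates 2 and 3 (range over samples left out -0.30 to 0.023), and window 2 became 0.28 with all UMIs. For bait 2, window 3 became 0.33, 0.29, 0.57 and 0.29 under the first 4 of these settings, and window 5 became -0.016 without ESC replicate 1 and -0.017 without ESC replicate 3 (range -0.017 to 0.0903). For the CTCF bait those 4 gave 0.17, 0.40, 0.23 and 0.12 in window 1 and 0.10, 0.33, 0.12 and 0.16 in window 2, and the first 3 gave 0.14, 0.36 and 0.16 in window 6. With each end counted once, the ratio of window 4 to its neighbours differed by -0.170 for bait 2 and that of window 2 to window 3 by 0.0129 for the CTCF bait. The cause was not tested. Of 741 values under alternatives, 569 kept their direction and their side of the threshold or moved by less than the spread between replicates, 60 fell below the threshold or gave fewer calls, 28 passed it or gave more, 51 moved by more than that spread and 33 turned direction. Few UMIs per end and 1 NSC library for 2 of the baits limit the precision.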
